A study of Homo sapiens with 9 samples.

Results

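Genes of Notch signalling, 10 of the 18417 named on the array, were followed in H295R cells under 3 culture conditions. They were the receptors NOTCH1, NOTCH2 and NOTCH3, the ligands JAG1, JAG2 and DLL1, the ligand-like protein DLK1 and the target genes HES1, HEY1 and NRARP. The genes were chosen by name, with earlier results of these data known. Each was read from the 1 probe set that the array annotation assigns to it alone. H295R is an established line from a human adrenocortical carcinoma that makes adrenal steroids, so every array describes 1 tumour line. All cells first spent 24 h in normal growth medium. They then spent 48 h in fresh normal growth medium (normal growth), in serum-free medium (serum starvation) or in serum-free medium with 10 mM metformin, a biguanide that inhibits mitochondrial respiration. Each condition had 3 GeneChip Human Gene 1.0 ST arrays, lettered A, B and C, which makes 9 arrays. The metformin cells were starved as well, so their comparison with starved cells changes the drug alone and their comparison with normal growth changes serum and drug together. The normal growth medium also carried insulin, transferrin and selenium, and the loss of these cannot be told apart from the loss of serum. The series' design text describes the arrays as coming from 3 independent experiments, and nothing says that a letter marks a shared one.

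Notch receptors sit in the cell membrane and bind Delta-like and Jagged ligands on neighbouring cells. Binding exposes the receptor to an ADAM protease and then to the γ-secretase complex, which frees the intracellular domain to enter the nucleus. There it joins the DNA-binding protein RBPJ and a Mastermind coactivator and switches on targets such as HES1 and HEY1, which encode repressors, and NRARP, which encodes a feedback inhibitor of the same complex. DLK1 resembles a ligand but lacks the domain that activates the receptor, and in the adrenal it is known as a marker of immature cortical cells.

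The upstream sequences of 3 members are shown for reference. HES1 and JAG1 are the members called in a comparison, and NRARP is another target gene, which was not called. Each line gives the 250 bases before the RefSeq start on build GRCh38.p14, 5′ to 3′ on the gene's own strand, and capitals mark TGGGAA, the core of the RBPJ recognition sequence. HES1 lies at chr3:194135898-194136147 on the plus strand, JAG1 at chr20:10674000-10674249 on the minus strand and NRARP at chr9:137302272-137302521 on the minus strand.
HES1: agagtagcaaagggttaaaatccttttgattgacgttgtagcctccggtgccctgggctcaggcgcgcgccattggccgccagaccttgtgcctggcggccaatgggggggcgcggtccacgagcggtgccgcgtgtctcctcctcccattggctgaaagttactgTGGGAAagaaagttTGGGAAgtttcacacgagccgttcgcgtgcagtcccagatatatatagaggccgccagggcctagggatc
JAG1: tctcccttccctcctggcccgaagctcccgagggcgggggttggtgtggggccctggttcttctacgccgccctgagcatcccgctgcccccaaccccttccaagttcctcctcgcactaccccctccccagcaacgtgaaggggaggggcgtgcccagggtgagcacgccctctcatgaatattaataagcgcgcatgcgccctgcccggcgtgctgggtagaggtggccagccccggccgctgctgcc
NRARP: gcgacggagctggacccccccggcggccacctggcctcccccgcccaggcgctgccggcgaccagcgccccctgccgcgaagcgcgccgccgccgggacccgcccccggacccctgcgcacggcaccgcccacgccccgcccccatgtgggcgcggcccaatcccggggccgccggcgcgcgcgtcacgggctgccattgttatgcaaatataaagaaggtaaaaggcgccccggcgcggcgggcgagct

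HES1 held TGGGAA 2 times on its own strand, starting 84 and 70 bases before the start and separated by 8 bases. The match at 84 was part of the longer GTGGGAA. Of the 10 genes, 7 had an upstream sequence in the table used, and HES1 was the only 1 of these 7 with TGGGAA on either strand. Over all 35116 upstream sequences of that length, 20.8% held TGGGAA at least once on either strand, 2.9% held it at least 2 times and 5.43% held GTGGGAA. HES1 also held 3 matches to CACNAG, the N box that HES proteins bind, counted over both strands, and NOTCH3 held 1. Of all the upstream sequences, 32% held CACNAG at least once on either strand and 6.32% held it at least 2 times. A match describes the letters in this window and is not a measured binding site.

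The values are log2 RMA values, so a difference of 1 is a 2-fold difference, and levels of different probe sets cannot be set against each other. The arrays had medians between 6.04 and 6.16 and values from 1.57 to 13.7. Starvation replicate B and metformin replicate C are described below as standing apart, a choice made after the data were seen. Their deviations from their own group means, over all 33297 probe sets, correlated at 0.44. Correlations of other arrays with different letters are not given. Metformin replicate C deviated most of all arrays (root mean square 0.207, against 0.118 for the array that deviated least). By this measure metformin replicate A (0.187) deviated more than starvation replicate B (0.175). As a rough description of the labelled cell type, each marker's group mean was set against the median over all values of that group's arrays. This ranks no transcripts. Over 9 adrenocortical markers the array means lay between 8.98 and 9.30, and 7 or 8 of the 9 were above the group's median. All 5 endothelial markers were below it in every group, as were 3 or 4 of the 4 immune markers and 4 or 5 of the 5 chromaffin and neuronal markers, while 3 of the 7 fibroblast markers were above it. Groups were compared with limma, the Benjamini-Hochberg adjustment took in every probe set on the array, and a gene was called at an adjusted p under 0.05.

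In the comparison of metformin with normal growth, JAG1 and HES1 fell, and these were the only calls by limma among the 10 genes in the 3 comparisons. The 2 called of 10 stand beside 9.07% of all probe sets called in either direction. Both were lower, beside 4.44% called lower, and 0 of the 10 were called higher, beside 4.63%. At an unadjusted p under 0.05, 4 of the 10 were lower (JAG1, HES1, DLK1 and NOTCH2), beside 11.2% lower and 22.9% in either direction. The 18417 named genes had larger shares than all probe sets: 1133 were called higher and 1172 lower. Unadjusted, 2490 of them were higher and 2765 lower. Starvation against normal growth called 0 of the 10, where 0.150% of all probe sets were called, 0.0420% higher and 0.108% lower. Without adjustment, at a p under 0.05, JAG1, HES1 and DLK1 were lower and NOTCH1 was higher, 4 of 10 beside 8.04%. Metformin against starvation also called 0 of the 10, where 4.28% of all probe sets were called, and JAG1 alone passed unadjusted, beside 19.9%. The methods' t-test with Benjamini-Hochberg adjustment likewise called 0 in both of these comparisons. Of the 18417 named genes, limma called 12 higher and 30 lower in starvation. For metformin against starvation it called 578 higher and 532 lower, again larger shares than over all probe sets. The comparisons share arrays, so they are not independent of each other.

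**Figure D1:**
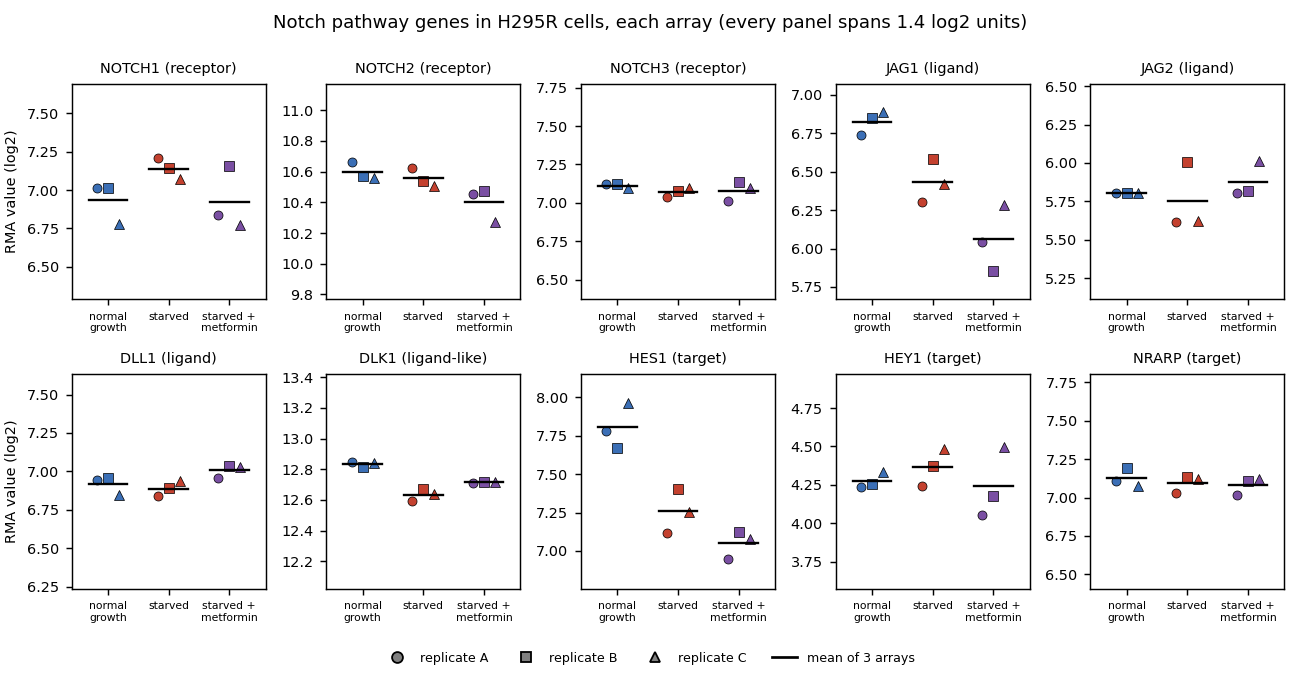
Log2 RMA value of each of the 10 Notch pathway genes on the 9 arrays, by condition, with a marker for the replicate letter and a line at the mean of 3 arrays; every panel spans 1.4 log2 units. The JAG1 and HES1 means step down from normal growth to starvation to metformin, and DLK1 lies lower in both starved conditions within a narrow range; only JAG1 and HES1 passed the test, in metformin against normal growth.

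Of the 3 ligands, JAG1 was the only one called. JAG1 encodes a Jagged ligand that activates Notch receptors on adjacent cells. Its values were 6.74, 6.85 and 6.89 in normal growth, 6.30, 6.59 and 6.42 in starvation and 6.04, 5.85 and 6.28 with metformin, in the order A, B, C. JAG1 lay above the array median on 7 of the 9 arrays, and metformin replicates A and B lay below it. The 3 conditions did not overlap at any step: the lowest normal growth array lay above the highest starved array, and the lowest starved array lay above the highest metformin array. All 3 groups stood apart in this order in 1.93% of probe sets, and JAG1 was the only 1 of the 10 genes to do so. JAG1 fell by 0.77 on the log2 scale with metformin relative to normal growth (SE 0.12, 95% interval −1.05 to −0.48, a 1.70-fold difference, limma adjusted p = 0.0174). Neither step alone passed: starvation differed from normal growth by −0.39 (SE 0.09, adjusted p = 0.243) and metformin from starvation by −0.38 (SE 0.13, adjusted p = 0.185). The call was lost when any 1 normal growth array was left out, with limma adjusted p values of 0.0721, 0.0816 and 0.0819 without A, B and C, and at 0.0616 without metformin replicate A. It was also lost with the methods' t-test (adjusted p = 0.0658). The change itself stayed between −0.88 and −0.66 under all alternatives run. Without metformin replicate C, which stood apart, it was −0.88, with a limma adjusted p of 0.0152. As in all bulk RNA, fewer cells that express a gene and less RNA per cell cannot be told apart.

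Differences of the other ligands did not pass. JAG2 encodes the second Jagged ligand, and its probe set was dim, below the array median on all 9 arrays. It read 5.80 on all 3 normal growth arrays and again on metformin replicate A, with exactly the same value on normal growth A and B, so the small SD there is no measure of the biological spread. Starved arrays ranged from 5.61 to 6.01 and metformin arrays from 5.80 to 6.01. No difference of JAG2 passed, and the interval for metformin against starvation ran from −0.19 to 0.44. DLL1 encodes a Delta-like ligand. It read 6.94, 6.96 and 6.85 in normal growth, 6.84, 6.89 and 6.94 in starvation and 6.96, 7.03 and 7.03 with metformin. All metformin arrays of DLL1 lay above all others, by a mean of 0.12 over starvation (adjusted p = 0.32) and 0.09 over normal growth (adjusted p = 0.405), and neither difference passed. Metformin arrays lay wholly above the starved arrays in 13.8% of probe sets and wholly above normal growth in 14.3%.

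DLK1 was bright and tightly measured, and it was lower in both starved conditions. Its values were 12.85, 12.81 and 12.84 in normal growth, 12.60, 12.67 and 12.64 in starvation and 12.71, 12.72 and 12.72 with metformin. No 2 groups overlapped, with normal growth highest, starvation lowest and metformin in between. The differences were small: −0.20 for starvation against normal growth (SE 0.04, adjusted p = 0.226), 0.08 for metformin against starvation (adjusted p = 0.463) and −0.12 for metformin against normal growth (SE 0.04, adjusted p = 0.179). None passed in limma. The difference between metformin and normal growth passed with the trend and robust options (adjusted p = 0.0224) and with the methods' t-test (adjusted p = 0.0291), and adjusted p values over all alternatives ran from 0.0224 to 0.393. These values lie near the top of the range of the arrays, whose highest value was 13.7. The interval for starvation ran from −0.30 to −0.10, so the array value of DLK1 moved by far less than a 2-fold difference.

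MEG3, a long non-coding RNA from the same imprinted locus as DLK1 but expressed from the other parental chromosome, had the wider swings. MEG3 read 8.05, 8.27 and 8.85 in normal growth, 7.56, 7.81 and 7.64 in starvation and 8.69, 8.37 and 8.11 with metformin. No starved array reached the lowest array of either other condition. The difference was −0.72 for starvation against normal growth (SE 0.21, limma adjusted p = 0.4) and 0.72 for metformin against starvation (SE 0.16, adjusted p = 0.0654), and neither passed. The second passed under 6 of 16 alternatives, with adjusted p values from 0.0299 to 0.216 over all of them. Starved cells thus had the lowest values of DLK1 and of MEG3, but metformin values of MEG3 overlapped normal growth while those of DLK1 did not.

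None of the receptors was called in any comparison. NOTCH1 was the member with the highest positive difference in starvation: it read 7.01, 7.02 and 6.78 in normal growth, 7.21, 7.14 and 7.07 in starvation and 6.84, 7.16 and 6.77 with metformin. All starved NOTCH1 values lay above normal growth, by 0.20 (95% interval 0.00326 to 0.41, adjusted p = 0.612), a pattern of 5.40% of probe sets. With metformin the values overlapped both other conditions, and replicate B was as high as the starved arrays. The difference from starvation was −0.22 (adjusted p = 0.358), and the mean was −0.01 from normal growth, turning to 0.06 without metformin replicate C.

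NOTCH2 had means of 10.6 ± 0.06 in normal growth, 10.6 ± 0.06 in starvation and 10.4 ± 0.11 with metformin (SD, n = 3). Its values were 10.67, 10.57 and 10.56, then 10.62, 10.54 and 10.51, then 10.46, 10.47 and 10.27. All metformin arrays lay below all arrays of both other conditions. The difference was −0.16 against starvation (adjusted p = 0.327) and −0.20 against normal growth (SE 0.07, adjusted p = 0.181), and neither passed. A further probe set is shared in the annotation by NOTCH2 and 2 related genes, NOTCH2NLA and NOTCH2NLB, and it went the other way: all its metformin values lay above the rest, by 0.18 over starvation (adjusted p = 0.228) and 0.16 over normal growth (adjusted p = 0.193). Both probe sets missed the threshold, and the shared one cannot be assigned to NOTCH2. NOTCH3 encodes a further receptor of the family. NOTCH3 values ran from 7.09 to 7.12 in normal growth, 7.04 to 7.09 in starvation and 7.01 to 7.14 with metformin, and replicate C had exactly the same value in all 3 conditions. Its 3 differences lay between −0.04 and 0.01, and the one between metformin and starvation turned from 0.00992 to −0.016 when arrays were shifted to a common median.

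**Figure D2:**
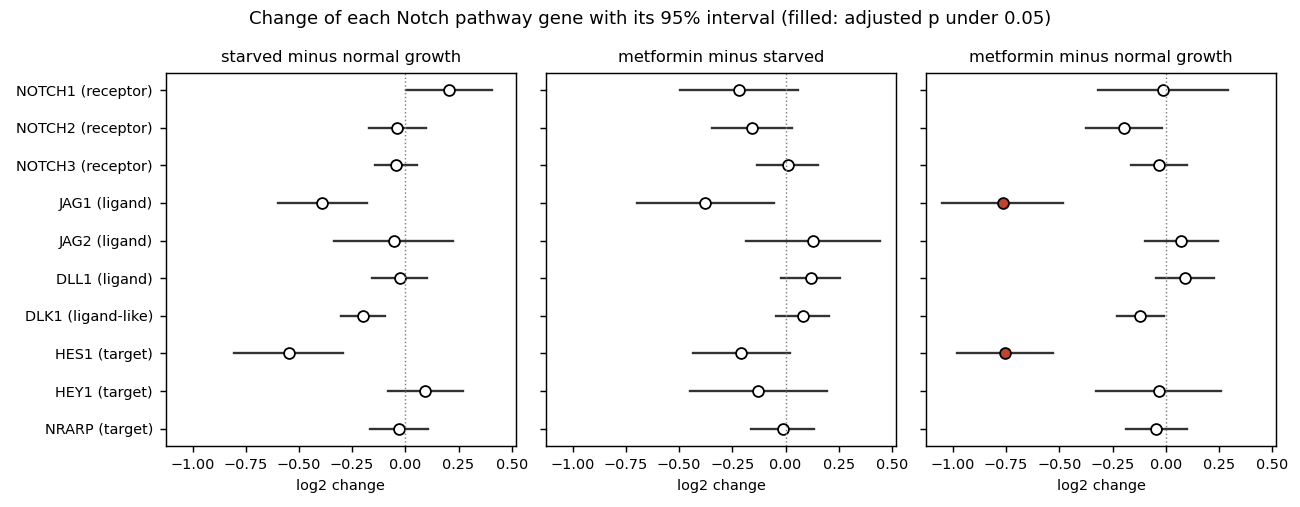
Log2 change of each of the 10 genes in the 3 comparisons (x axis), with its 95% interval from limma; filled points passed an adjusted p of 0.05. Only JAG1 and HES1, in metformin against normal growth, are filled, at −0.77 and −0.76.

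Of the 3 target genes, HES1 was the only one called. HES1 encodes a basic helix-loop-helix repressor and is the classical target of the receptor and RBPJ complex. It read 7.78, 7.67 and 7.96 in normal growth, 7.12, 7.40 and 7.25 in starvation and 6.95, 7.13 and 7.08 with metformin. Normal growth lay wholly above both starved conditions, which overlapped each other only through starvation replicate A and metformin replicate B. HES1 fell by 0.76 on the log2 scale with metformin relative to normal growth (SE 0.09, 95% interval −0.98 to −0.53, a 1.69-fold difference, limma adjusted p = 0.0107). The difference in starvation was −0.55 (SE 0.10, adjusted p = 0.19) and that between metformin and starvation was −0.21 (SE 0.09, adjusted p = 0.294), and neither passed. Without normal growth replicate A the metformin call was lost (limma adjusted p = 0.0604) at a change of −0.77, and it held without each other array left out in turn. The fit without metformin replicate C, which stood apart, gave −0.77 with a limma adjusted p of 0.0246.

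NRARP encodes an ankyrin repeat protein that limits the Notch complex. Its values ranged from 7.08 to 7.20 in normal growth, 7.03 to 7.14 in starvation and 7.02 to 7.12 with metformin. The difference between metformin and normal growth was −0.05, with an interval from −0.19 to 0.10 and an adjusted p of 0.715, an interval that does not reach the size of the HES1 change. Normal growth A and metformin B had exactly the same NRARP value, and how far this probe set can respond was not tested. HEY1 encodes a repressor related to HES1 and lay below the array median on all 9 arrays. Its values were 4.24, 4.25 and 4.33 in normal growth, 4.25, 4.37 and 4.49 in starvation and 4.05, 4.17 and 4.50 with metformin. The groups overlapped in each comparison, and the interval for metformin against normal growth ran from −0.33 to 0.26.

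Across the 10 genes as a group the median change was −0.04 in starvation, −0.07 for metformin against starvation and −0.04 for metformin against normal growth. The medians over all named genes were −0.000717, −0.0261 and −0.0201. Of the 10 genes, 4 (NOTCH2, JAG1, HES1 and NRARP) had means that were lower at both steps, beside 21.3% of all probe sets, though for NRARP the steps were only −0.03 and −0.01. In starvation the groups did not overlap for 4 of the 10 (beside 13.0% of all probe sets), 1 higher (5.40%) and 3 lower (7.62%). For metformin against starvation this held for 4 (25.2%), 2 higher (13.8%) and 2 lower (11.4%). For metformin against normal growth it held for 5 (28.4%), 1 higher (14.3%) and 4 lower (14.1%).

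The wider pathway was read from 50 further genes, 45 of which had a probe set of their own. In starvation, 0 of the 45 were called by limma, and 4 passed without adjustment, a share near the 8.04% of all probe sets, 3 higher (beside 3.30%) and 1 lower (beside 4.74%). The genes at that p, none of which was called, were DNER, a transmembrane protein that can bind Notch (0.39, adjusted p = 0.146), MAML2, a Mastermind coactivator (0.53, adjusted p = 0.445), KAT2B, a histone acetyltransferase (0.23, adjusted p = 0.489), and DTX3L, a ubiquitin ligase of the Deltex family (−0.23, adjusted p = 0.598). DNER read 9.17, 9.03 and 8.97 in normal growth, 9.48, 9.42 and 9.45 in starvation and 9.32, 9.29 and 9.27 with metformin, so that no groups overlapped. MAML2 had 1 starved array apart from the other two, at 6.47 on replicate B against 7.06 on A and 7.06 on C. Without that array its difference was 0.73, with a limma adjusted p of 0.0533. RBPJ, the DNA-binding partner of all Notch receptors, stayed within 10.4 to 10.5 on every array, and its differences lay between 0.00619 and 0.03, the smallest of which, between metformin and starvation, turned to −0.0197 with a common array median.

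**Figure D3:**
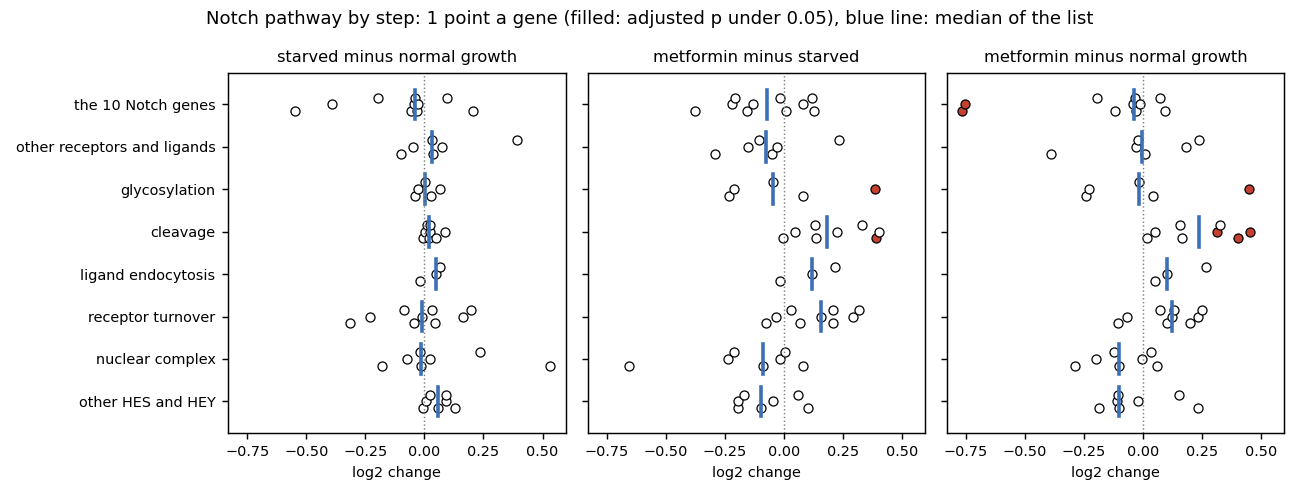
Log2 change (x axis) in the 3 comparisons of the 10 Notch genes and of the 45 other measured pathway genes, grouped by step of the pathway, with 1 point a gene, filled where the adjusted p was under 0.05, and a line at the median of each list. With metformin 7 of the 8 cleavage genes against starvation and 8 of 8 against normal growth lie to the right of 0, with medians of 0.18 and 0.24, while the nuclear complex and the other HES and HEY genes have medians just below 0. Of the 18417 named genes, 7977 and 8168 had positive changes in these 2 comparisons.

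With metformin, the genes called among the 45 were APH1B and RFNG in both comparisons and NCSTN and ADAM17 against normal growth only. Against starvation ADAM17 changed by 0.40 and NCSTN by 0.23. Neither was called there, though each passed under 6 of 16 alternatives. Against starvation 2 of the 45 were called higher, beside 2.30% of all probe sets, and 0 lower by limma, beside 1.98%. Of the 18417 named genes, 578 were called higher and 532 lower, larger shares than these. Without adjustment 9 of the 45 were higher, beside 11.3% of all probe sets, and 3 lower (POFUT1, MAML2 and DNER), beside 8.63%. The called genes were APH1B, a γ-secretase subunit (0.39, SE 0.05, adjusted p = 0.0246), and RFNG, a Fringe enzyme that extends sugars on Notch receptors (0.39, SE 0.07, adjusted p = 0.0447). APH1B lay between 7.99 and 8.01 in starvation and read 8.45, 8.37 and 8.35 with metformin. RFNG read 7.46, 7.61 and 7.56 and then 7.90, 7.86 and 8.02. Each metformin array was thus above every starved array for both genes. Both calls rest on the full set of arrays: RFNG lost its call without any 1 array of the 6 (adjusted p from 0.0725 to 0.167), APH1B without any 1 but metformin replicate C (0.0595 to 0.125 without the others), and without both arrays that stood apart 0 of the 45 were called. With a common array median neither was called (0.072 for APH1B and 0.0711 for RFNG).

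Against normal growth, 4 of the 45 were called higher and 0 lower by limma, beside 4.63% and 4.44% of all probe sets. Of the 18417 named genes, 1133 were called higher and 1172 lower, larger shares than these. Without adjustment 14 of the 45 were higher, beside 11.7% of all probe sets, and 3 lower (POFUT1, DLK2 and MAML3), beside 11.2%. APH1B (0.40, adjusted p = 0.015) and RFNG (0.45, adjusted p = 0.0233) were joined by NCSTN, the γ-secretase subunit nicastrin (0.31, adjusted p = 0.0183), and ADAM17, a membrane protease that can make the first cut in the receptor (0.45, adjusted p = 0.018). NCSTN read 10.20, 10.22 and 10.14 in normal growth, 10.26, 10.27 and 10.30 in starvation and 10.50, 10.48 and 10.51 with metformin. ADAM17 read 9.48, 9.47 and 9.54, then 9.59, 9.44 and 9.60, then 10.06, 9.85 and 9.93. Metformin arrays were the highest for both genes, with no overlap. Leaving out any 1 normal growth array ended all 4 of these calls, with limma adjusted p values from 0.0574 to 0.0844, and without metformin replicate A 3 of the 45 were called. Without metformin replicate C, which stood apart, all 4 genes passed, with limma adjusted p values from 0.0245 to 0.0397.

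By step of the pathway, the 8 measured cleavage genes had a median change of 0.02 in starvation, 0.18 for metformin against starvation and 0.24 for metformin against normal growth, and 8 of 8 changes were positive in the last. In that comparison 8168 of the 18417 named genes had a positive change. The named members of the cleavage list are ADAM17 and subunits of γ-secretase. Both ADAM17 and the γ-secretase complex also cut many membrane proteins other than Notch receptors. The 7 measured genes of the nuclear complex had medians of −0.02, −0.09 and −0.10, and the 7 other HES and HEY genes had medians of 0.06, −0.10 and −0.10. By limma 0 genes of either list were called in any comparison. At an unadjusted p under 0.05 with metformin, MAML2 was lower against starvation, MAML3 was lower against normal growth (−0.29, adjusted p = 0.113) and HEYL was higher against normal growth (0.23, adjusted p = 0.107).

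**Figure D4:**
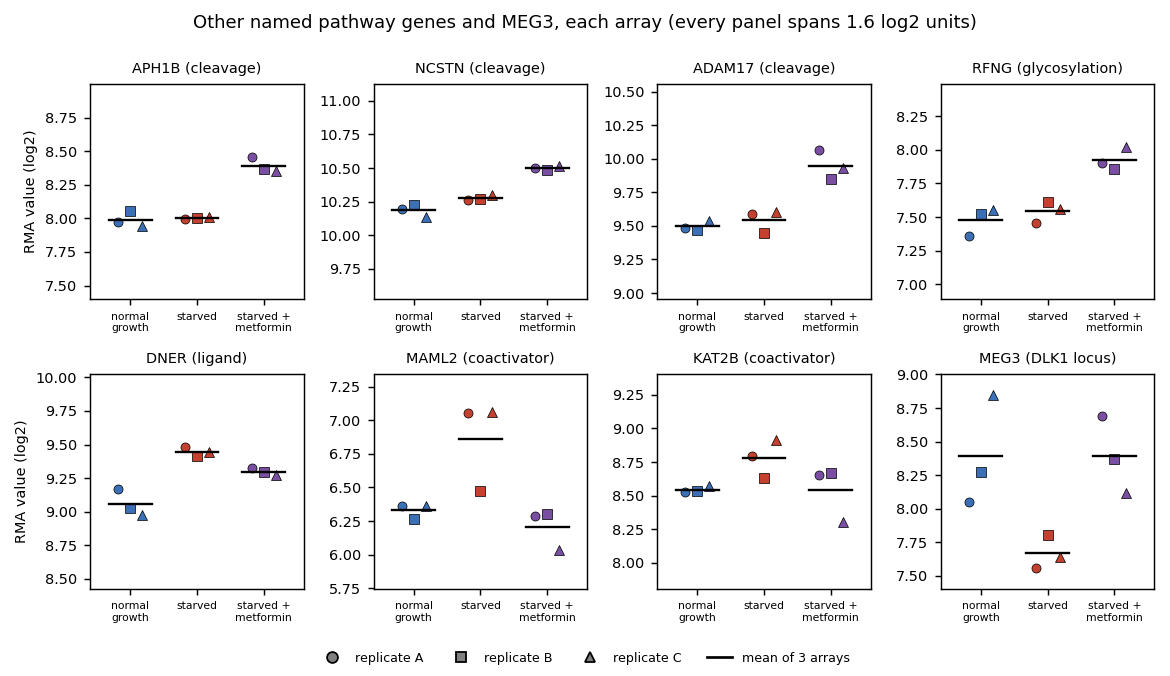
Log2 RMA values on the 9 arrays of the named genes outside the 10 members, by condition, with a marker for the replicate letter and a line at the mean of 3 arrays; every panel spans 1.6 log2 units. APH1B, NCSTN, ADAM17 and RFNG are highest with metformin, DNER is highest and MEG3 lowest in starvation, and MAML2 on starvation replicate B lies closer to normal growth than the other starved arrays do.

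The genes most like JAG1 and HES1 over the 9 arrays were sought among all named genes. JAG1 was followed most closely by PSRC1 (Pearson r = 0.982), a spindle-associated protein, SRM (0.981), which encodes spermidine synthase, and KHSRP (0.974), an RNA-binding protein. HES1 was followed by TRIM47 (0.984), ENC1 (0.972) and LIPE (0.972), which encodes hormone-sensitive lipase. JAG1 and HES1 correlated with each other at 0.894. These coefficients describe 9 arrays in 3 groups, are chosen from 18416 genes and share the group differences. ENC1 had the widest range of the 6, from a mean of 7.13 in normal growth to 5.98 in starvation and 5.61 with metformin.

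Some markers of the cell type differed in the comparison in which JAG1 and HES1 were called. Of the 9 adrenocortical markers, 3 were called lower (beside 4.44% of all probe sets) and 1 higher (4.63%) with metformin against normal growth. The called markers went in both directions: SULT2A1, the DHEA sulfotransferase, changed by −1.19, NR5A1, the steroidogenic factor SF-1, by −0.57 and INHA, an inhibin subunit, by −0.55, whereas MC2R, the ACTH receptor, changed by 1.20 (limma adjusted p from 0.00198 to 0.0255). For metformin against starvation, 2 of the 9 were called lower (beside 1.98%) and 1 higher (2.30%). In starvation 0 of the 9 were called by limma, with 5 lower at an unadjusted p under 0.05, beside 4.74% of all probe sets. Array means of the 9, which average over opposite changes, lay from 9.19 to 9.30 in normal growth, 9.09 to 9.12 in starvation and 8.98 to 9.20 with metformin. Of the 7 fibroblast markers 0 were called by limma in any comparison. Unadjusted, 1 was lower in starvation (beside 4.74% of all probe sets), 1 higher for metformin against starvation (11.3%) and 2 lower for metformin against normal growth (11.2%). The array means of these 7 lay from 5.50 to 5.55, 5.35 to 5.42 and 5.32 to 5.44. The part of these values in the JAG1 and HES1 values was not tested.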

How the data were processed

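Total RNA from H295R cells was hybridised to GeneChip Human Gene 1.0 ST arrays. The authors deposited log2 expression values, 1 column an array. Tools named by the submitters were Affymetrix Expression Console, RMA and limma. Affymetrix Power Tools was named in the paper, and versions were not stated. RMA removes background and makes the arrays' distributions of probe intensities equal. It then reduces each probe set to 1 value by median polish, which can give identical values on several arrays. The array medians of the resulting values still differed, from 6.04 to 6.16. The values were used as deposited.

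Groups came from the sample titles. Each comparison was fitted to its 6 arrays with limma 3.58.1 (lmFit, eBayes) under R 4.3.3, with Benjamini-Hochberg adjustment over 33297 probe sets and a threshold of 0.05. With 3 arrays against 3, an exact permutation test of a single gene cannot go below a two-sided p of 0.1. Depth has no counterpart on arrays, and their number limits the precision. The fit was tested on simulated data.

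Names were used only from the 19460 probe sets with 1 symbol (1754 had several and 12083 none). For 769 genes with several such probe sets, the one brightest over 9 arrays was read. A few listed genes are not analysed here, nor are the upstream sequences of DLL1, HEY1 and DLK1. Upstream sequences came from RefSeq (GRCh38.p14).

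The members, gene lists and tests were chosen with earlier results of these data known. Named were the 10 members, MEG3 and RBPJ, wider pathway genes called in a comparison or, where fewer than 4 were called, the 4 with the lowest unadjusted p under 0.05, and the 3 genes most correlated with each of the 2 members with the widest range of group means. NR5A1, SULT2A1, INHA, MC2R, POFUT1, DLK2, MAML3 and HEYL were named after their values were seen.

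Alternatives were all 9 arrays in 1 fit, a common array median, a repeated quantile normalisation, removal of probe sets under the 40th percentile, single-symbol probe sets only, averaging of a gene's probe sets, eBayes with trend and robust options, the methods' t-test (Student's, named by the paper for its statistics), the replicate letter as a block and each array left out in turn. Leaving out starvation B and metformin C together was chosen after seeing the data. Each comparison with normal growth holds only 1 of these arrays, so there it repeats the fit with that array left out.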

Additional observations from a re-analysis of the deposited data

How the results depend on the processing

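For the single-gene changes (57 in all), 810 of 909 alternative values kept direction and side of the threshold, 46 fell short of it, 25 passed it and 28 changed sign. Direction could change only with a common array median, repeated quantile normalisation, arrays left out or, for a gene with several probe sets, their averaging. The other alternatives keep the difference of means by design and could move only the side of the threshold. No gene of the 10 was called in starvation, or in metformin against starvation, under any alternative run. Of the 45 other pathway genes, metformin against starvation called 2, and 9 with all 9 arrays in the fit, 5 each without dim probe sets, with single-symbol probe sets, with averaged probe sets and with trend and robust options, 0 with a common array median, 0 without both arrays that stood apart, and 0 to 1 with 1 array left out. Against normal growth it called 4, and 7 each with all 9 arrays, without dim probe sets, with single-symbol probe sets and with averaged probe sets, 2 with the methods' t-test, and 0 to 5 with 1 array left out. The 2 calls of JAG1 and HES1 in metformin against normal growth became 0 to 2 with 1 array left out. HEY1 has no value without dim probe sets, and its low signal and that of JAG2 limit what could be seen.

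Same-letter deviations correlated at 0.09, 0.13 and 0.024 between starvation and normal growth, 0.29, −0.14 and −0.25 between metformin and starvation, and −0.088, 0.0098 and −0.16 between metformin and normal growth, so the letters were not taken to pair the arrays, and not every array correlated best with its own letter. With the replicate block, the called Notch genes in metformin against normal growth went from 2 to 0 (JAG1 adjusted p = 0.0693, HES1 0.0654), the other pathway genes from 4 to 0, and those against starvation from 2 to 0.

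Sign changes concerned only differences that had not passed. In metformin against starvation, a common median gave −0.016 for NOTCH3 and −0.0197 for RBPJ, and repeated quantile normalisation −0.0325 for NOTCH3. In metformin against normal growth, these gave MEG3 −0.0229 and −0.00815, and leaving out metformin replicate C gave NOTCH1 0.0616 and KAT2B 0.116. With 1 array left out, changes in starvation ran from −0.185 to 0.0116 for JAG2, −0.0562 to 0.00366 for NRARP and −0.0108 to 0.0441 for APH1B. Those of metformin against starvation ran from −0.0187 to 0.0455 for NOTCH3, −0.0477 to 0.0178 for NRARP and −0.0099 to 0.017 for RBPJ. Those of metformin against normal growth ran from −0.13 to 0.0616 for NOTCH1, −0.0608 to 0.00342 for NOTCH3, −0.162 to 0.0606 for HEY1, −0.17 to 0.23 for MEG3 and −0.0668 to 0.116 for KAT2B. The causes were not tested.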
